A study of Macaca fascicularis with 12 samples.

Results

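Toll-like receptors and the proteins that work with them were followed through arteries carrying plaques of increasing size. The set held 10 genes, TLR1, TLR2, TLR4, TLR7, TLR8, LY86, LY96, CD180, CD14 and MYD88, and every array probe annotated with only one of these symbols was taken, whatever its values. This gave 11 probes for 9 genes, out of 18160 gene symbols on the array. The genes themselves had been chosen with earlier results of these data known. TLR4 and TLR7 had 2 probes each, and the only TLR2 probe carried 2 symbols, so TLR2 was not used.

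The tissue was the left iliac artery of 12 female cynomolgus monkeys, with 1 animal and 1 array per sample. All 12 animals were over 20 years of age, had eaten a high fat diet for 8 years, had been ovariectomized for 4 years and had received no treatment. The small plaque group held 4 arteries with plaque areas of 0, 0, 0.041 and 0.113 mm2. The medium group held 5 arteries with 0.30, 0.391, 0.448, 0.516 and 0.542 mm2, and the large group held 3 with 0.61, 0.873 and 1.003 mm2. Every group shared the diet, the surgery and the age, so no artery stands for an untreated young animal, and 2 of the 4 small plaque arteries had no plaque at all.

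Toll-like receptors are membrane proteins that recognise microbial products and some molecules released by damaged tissue. TLR4 binds bacterial lipopolysaccharide together with LY96 (MD-2), after CD14 has delivered it, while TLR1 pairs with TLR2 to recognise bacterial lipoproteins and TLR7 and TLR8 recognise single-stranded RNA inside endosomes. CD180 (RP105) resembles TLR4 but lacks its signalling domain and is held at the cell surface by LY86 (MD-1). MYD88 is the adaptor through which most of these receptors reach NF-kappa-B, and macrophages of atherosclerotic plaques are among the cells known to carry them.

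Levels are log2 of the deposited intensity, on which a difference of 1 is a 2-fold change. The array medians lay close together, between 1.00 and 1.01 in intensity, and the lowest correlation between arrays of the same group was 0.934 over all probes. The probes were designed on human sequences, so mismatches to monkey RNA can lower a signal, and levels of different probes are not comparable with each other. Smooth muscle markers had summed intensities from 565 to 1753 per artery, so the labelled arterial tissue was present in every sample. With 3 to 5 arrays a group, the number of arrays limits the precision.

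In arteries with medium plaques, 7 of the 11 probes rose against small plaques and none fell. These were LY86, LY96, TLR8, TLR1, TLR4 by its probe 259050, CD180 and CD14. Over all 53877 probes tested, 1.97% rose and 1.17% fell in the same comparison. The median difference of the 11 probes was 2.05 on the log2 scale, against -0.09 over all probes. In arteries with large plaques 6 of the 11 rose, the same list without CD180, where 0.948% of all probes rose and 0.197% fell. That median was 1.72, against -0.10 over all probes, and the comparisons share the 4 small plaque arteries. Because the genes were chosen with earlier results of these data known, these shares describe the set and do not test it. In whole tissue, more cells of a type and more RNA per cell cannot be told apart.

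**Figure D1:**
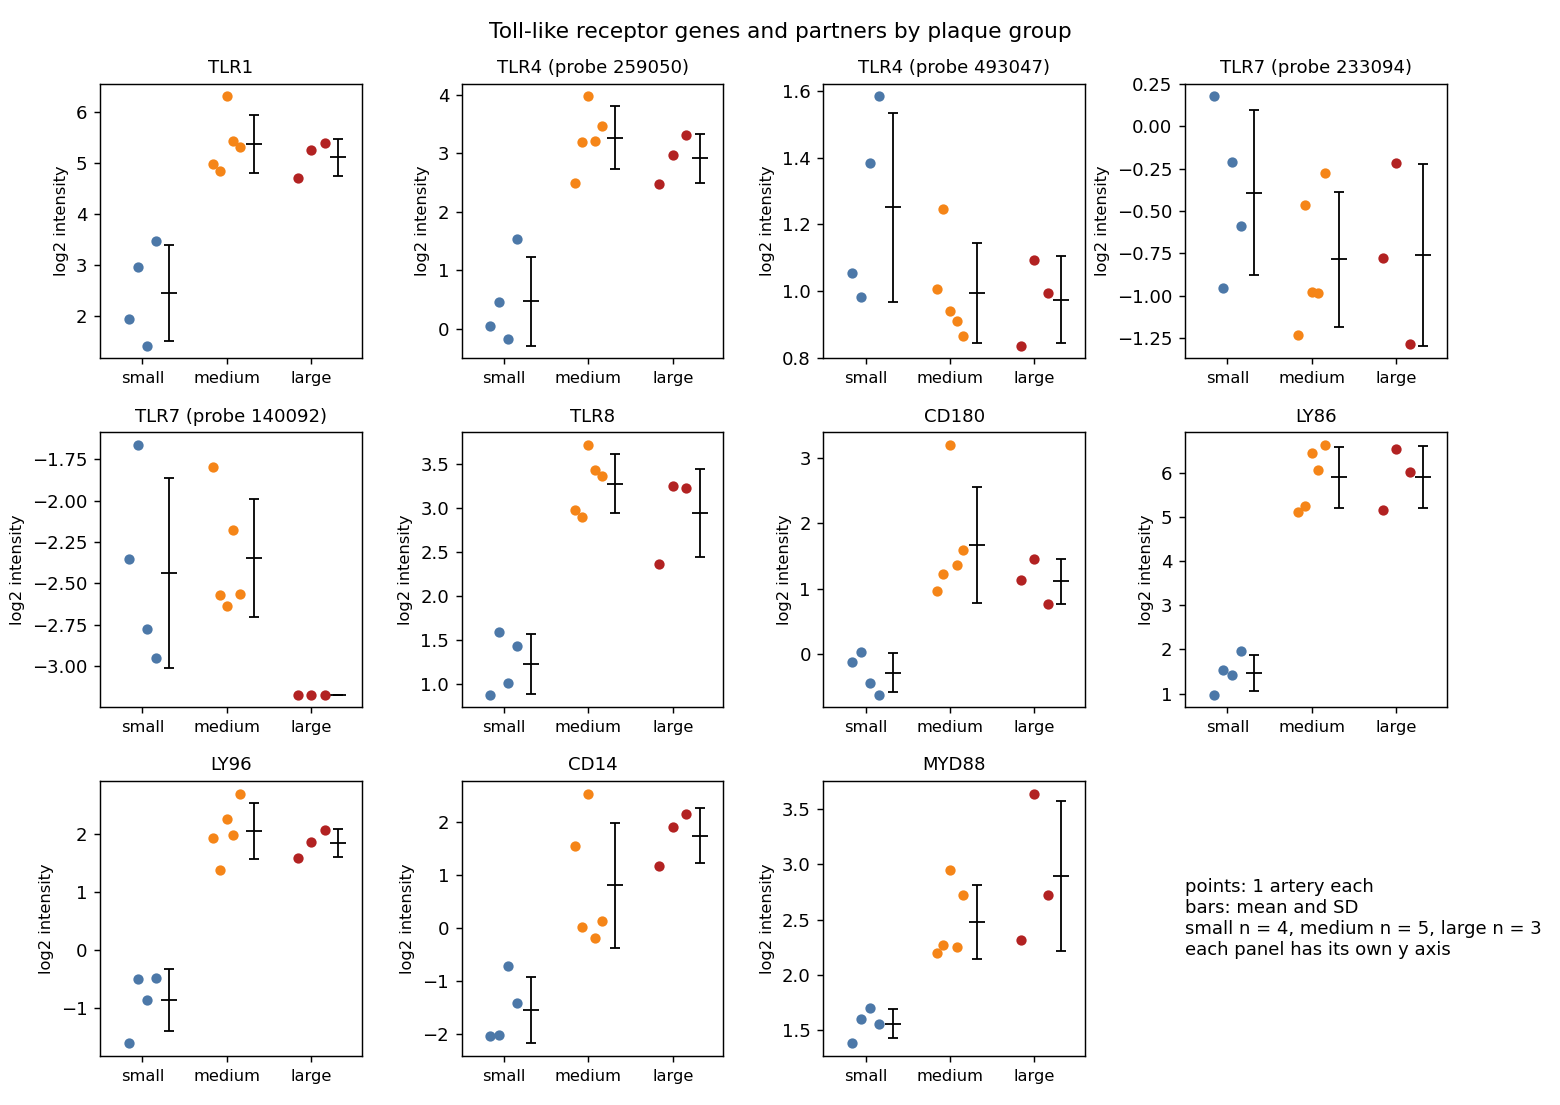
Log2 intensity of the 11 probes in each of the 12 arteries, by plaque group. Points are single arteries, bars are group means with SD, and each panel has its own y axis; LY86 lies between 0.98 and 1.97 in small plaques and between 5.12 and 6.63 in the other arteries, whereas TLR7 and the TLR4 probe 493047 show no such separation.

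The receptors of the cell surface come first. TLR1 stood at 1.94, 2.95, 1.41 and 3.47 in the small plaque arteries, at 4.98, 4.83, 6.30, 5.42 and 5.30 in the medium ones and at 4.69, 5.25 and 5.37 in the large ones, each group in order of plaque area. All 8 arteries with medium or large plaques therefore lay above all 4 small ones, with a gap of 1.22 between the groups. The difference was 2.92 ± 0.41 (SE, limma) for medium plaques, a 7.58-fold rise (adjusted p = 0.00314), and 2.66 ± 0.47 for large ones (adjusted p = 0.02). TLR1 is closely related to TLR6, and binding of the probe to TLR6 transcripts was not tested.

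TLR4, the lipopolysaccharide receptor, gave different answers on its 2 probes. On probe 259050 it stood at 0.04, 0.46, -0.17 and 1.54 in small, at 2.49, 3.20, 3.97, 3.21 and 3.46 in medium and at 2.47, 2.96 and 3.30 in large plaques. Every artery with medium or large plaque was above every small one, and the highest small value belonged to the artery with the most plaque of its group. That probe rose by 2.80 ± 0.36 in medium (adjusted p = 0.00203) and by 2.45 ± 0.42 in large plaques (adjusted p = 0.017).

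On probe 493047, TLR4 stood at 1.05, 0.98, 1.39 and 1.58 in small, at 1.00, 1.25, 0.94, 0.91 and 0.87 in medium and at 0.84, 1.09 and 0.99 in large plaques. The groups overlapped, and the whole range of the 12 arteries was smaller than the step seen on the other probe. The differences were -0.26 ± 0.16 in medium and -0.28 ± 0.19 in large plaques, and neither passed the test (adjusted p = 0.442 and 0.509). Which transcripts each probe binds in the monkey was not tested, so the TLR4 result holds for probe 259050 and not for the gene as a whole.

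CD180, the TLR4 relative without a signalling domain, stood at -0.12, 0.03, -0.45 and -0.63 in small plaques. It reached 0.97, 1.23, 3.20, 1.36 and 1.59 in medium and 1.14, 1.45 and 0.76 in large plaques. No artery with medium or large plaque fell to the small plaque level, and the medium artery with 0.448 mm2 stood far above the rest. CD180 rose by 1.96 ± 0.39 in medium plaques (adjusted p = 0.0188), while the difference of 1.41 ± 0.44 in large plaques did not pass the test (adjusted p = 0.142). Without medium replicate 1 the large plaque difference passed (adjusted p = 0.0162).

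The endosomal receptors differed between themselves. TLR8 stood at 0.87, 1.59, 1.01 and 1.43 in small, at 2.98, 2.91, 3.72, 3.44 and 3.36 in medium and at 2.37, 3.25 and 3.23 in large plaques. Its lowest value among the 8 arteries with more plaque was 0.78 above its highest small plaque value. TLR8 rose by 2.05 ± 0.25 in medium (adjusted p = 0.00136) and by 1.72 ± 0.28 in large plaques (adjusted p = 0.0144).

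TLR7, which recognises similar RNA, did not pass the test on either probe. On probe 233094 it stood at 0.18, -0.95, -0.21 and -0.59 in small, at -1.23, -0.47, -0.97, -0.98 and -0.27 in medium and at -0.78, -0.22 and -1.29 in large plaques. The groups overlapped throughout, with differences of -0.39 ± 0.29 in medium (adjusted p = 0.517) and -0.37 ± 0.33 in large plaques (adjusted p = 0.635). The values of this probe lay mostly below the array medians of about 0.01 in log2. Whether it reports TLR7 of the monkey was not tested. Probe 140092 was dim: it ranged from -2.95 to -1.66 in small and from -2.64 to -1.80 in medium plaques, and all 3 large plaque arteries were at the floor of -3.17. No direction is drawn from that probe, since values at the floor have no order.

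The co-receptors follow. LY86, the partner of CD180, stood at 0.98, 1.53, 1.42 and 1.97 in small, at 5.12, 5.24, 6.46, 6.05 and 6.63 in medium and at 5.15, 6.54 and 6.02 in large plaques. A gap of 3.15 separated the highest small artery from the lowest of the other 8, the widest among the 11 probes. The rise was 4.43 ± 0.37 in medium (adjusted p = 0.000182) and 4.43 ± 0.42 in large plaques (adjusted p = 0.00092), 21.5-fold in each. This was also the largest difference of the set in both comparisons.

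LY96, which completes the lipopolysaccharide receptor with TLR4, stood at -1.62, -0.50, -0.87 and -0.49 in small, at 1.92, 1.37, 2.26, 1.99 and 2.69 in medium and at 1.59, 1.85 and 2.07 in large plaques. Small plaque arteries were all below 0 on the log2 scale and the other 8 were all above 1. LY96 rose by 2.92 ± 0.29 in medium (adjusted p = 0.000424) and by 2.71 ± 0.33 in large plaques (adjusted p = 0.00277).

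CD14, which hands lipopolysaccharide to LY96 and TLR4, varied most within a group. It stood at -2.04, -2.02, -0.71 and -1.41 in small, at 1.54, 0.03, 2.54, -0.18 and 0.13 in medium and at 1.17, 1.91 and 2.16 in large plaques. Only 0.53 separated the highest small artery from the lowest medium one, and the medium arteries spread over 2.72 between their extremes. CD14 rose by 2.36 ± 0.53 in medium (adjusted p = 0.0345) and by 3.29 ± 0.61 in large plaques (adjusted p = 0.0253). The medium call was lost without small replicate 1, 2 or 4 or medium replicate 2 or 4 in turn, with differences from 2.17 to 2.53. The large call was lost without small replicate 2 or 4 or large replicate 1 or 3, with differences from 3.08 to 3.21.

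MYD88, the adaptor shared by these receptors, moved least among the probes whose groups separated. It stood at 1.38, 1.60, 1.70 and 1.56 in small, at 2.20, 2.27, 2.95, 2.25 and 2.72 in medium and at 2.32, 3.63 and 2.73 in large plaques. All 8 arteries with more plaque lay above the small ones, by at least 0.50. The differences of 0.92 ± 0.26 in medium and 1.33 ± 0.29 in large plaques did not pass the test (adjusted p = 0.0783 and 0.0519). The medium difference passed without large replicate 3 (0.92), and the large one without medium replicate 1 (1.33) or large replicate 2 (1.62). Both also passed with the filter on dim probes and with the trended robust variance. In medium plaques it passed with only the groups compared, and in large ones with the 10th percentile floor or array weights. In total, 4 of 21 alternatives passed in medium and 6 of 21 in large plaques.

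**Figure D2:**
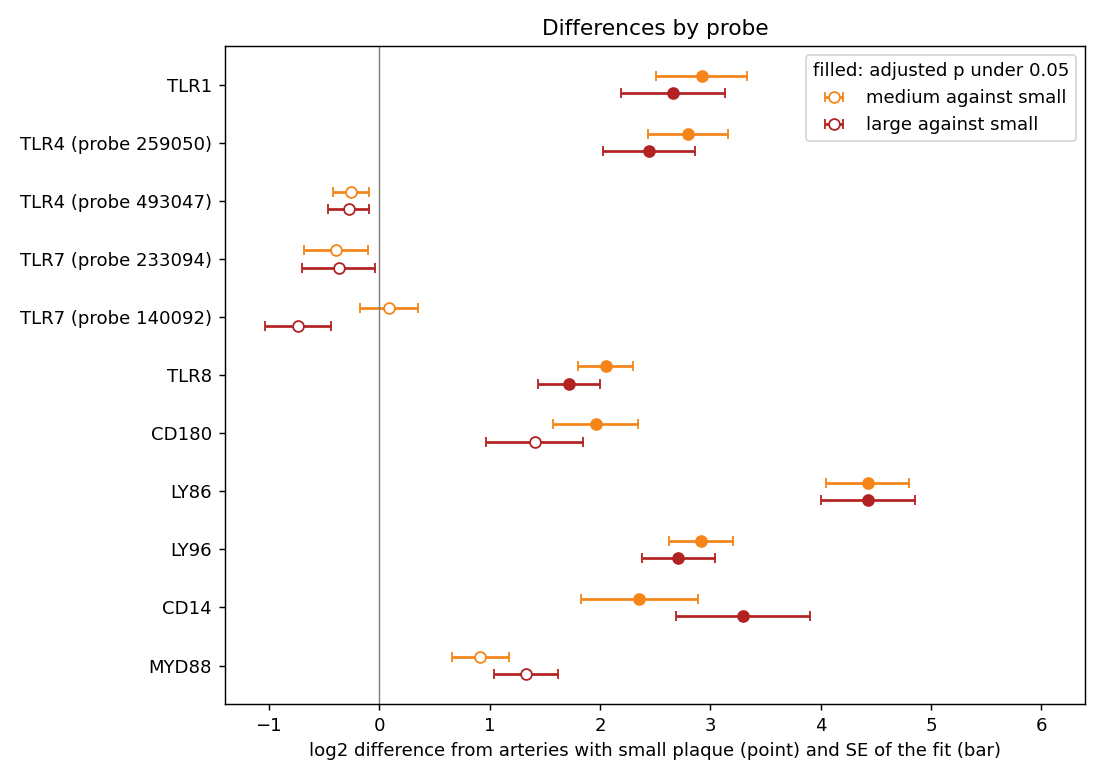
Log2 difference of each of the 11 probes from small plaque arteries, in medium (orange) and large (red) plaques, with the SE of the fit as bars. Filled points passed an adjusted p of 0.05: 7 probes in medium and 6 in large plaques, led by LY86 at 4.43 in both.

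Complete separation was common in the set, whose genes were chosen with earlier results of these data known. For 8 of the 11 probes, all but TLR7 and the TLR4 probe 493047, every artery with medium or large plaque was above every small plaque artery, where 2.62% of all probes did so. Medium plaques alone separated from small ones for 3.94% of all probes and large plaques alone for 5.99%, and the same 8 probes of the set separated in each. Without large replicate 1 or large replicate 3, 2 probes passed in large plaques (LY86 and LY96), and without small replicate 2, 3 passed (LY86, LY96 and TLR8).

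Large and medium plaques were then set against each other. None of the 11 probes passed, adjusted p values ran from 0.948 to 1, and the share called over all probes was 0%. At an unadjusted p under 0.05 there was 1 of 11, the dim TLR7 probe 140092, against 2713 of 53877 overall. The estimates were 0.00 for LY86, -0.26 for TLR1, -0.35 and -0.02 for the TLR4 probes, -0.33 for TLR8, -0.21 for LY96 and -0.56 for CD180. CD14 had the largest estimate at 0.94 ± 0.58 and MYD88 had 0.42 ± 0.28. A missed threshold with 5 and 3 arteries does not show equal levels.

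Plaque area was also used as a number over all 12 arteries, to see whether levels followed plaque size. LY86 rose by 5.76 ± 1.00 log2 per mm2 (adjusted p = 0.0327) and MYD88 by 1.70 ± 0.32 (adjusted p = 0.0391). These 2 of 11 probes passed, where 0.483% of all probes rose. TLR1 had a slope of 3.50 ± 0.84 (adjusted p = 0.0721), and neither that nor any other slope in the set passed. Without each of the 4 small plaque animals, or large replicate 2 or 3, 0 slopes of the set passed, whereas 7 passed without medium replicate 1 and 4 without medium replicate 2. MYD88 also lost its call without medium replicate 3, 4 or 5. Where their calls were lost in this way, the slopes ran from 5.27 to 6.07 for LY86 and from 1.41 to 1.77 for MYD88.

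Within the 8 arteries of the medium and large groups, no slope of the set passed (adjusted p from 0.744 to 1), and the share called over all probes was again 0%. There, LY86 had a slope of 1.11 ± 0.87 per mm2, CD14 one of 1.72 ± 1.39 and MYD88 one of 1.22 ± 0.61. CD180 had -0.89 ± 1.05, and the values for TLR1, TLR4 probe 259050, TLR8 and LY96 were 0.10, 0.10, 0.08 and 0.14. At an unadjusted p under 0.05 there was again 1 of 11, the TLR7 probe 140092, against 2962 of 53877 overall. The slopes over 12 arteries thus include the step between the small group and the rest, and none of the slopes above that step passed.

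**Figure D3:**
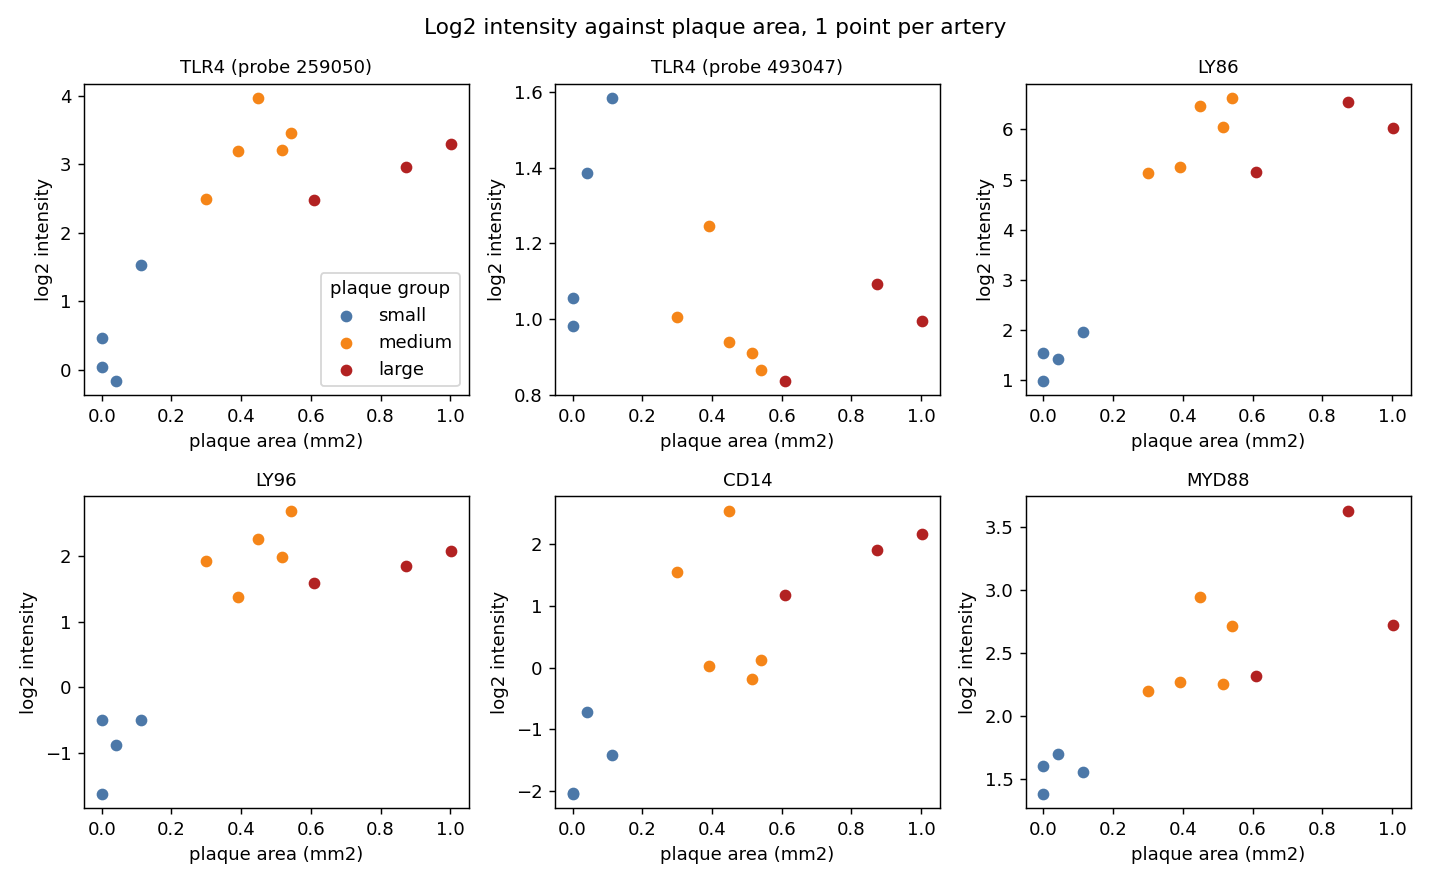
Log2 intensity of both TLR4 probes, LY86, LY96, CD14 and MYD88 against plaque area in mm2, 1 point per artery, coloured by plaque group (small blue, medium orange, large red), each panel with its own y axis. LY86 stands at 0.98 to 1.97 up to 0.113 mm2 and at 5.12 to 6.63 from 0.30 mm2, while TLR4 probe 493047 overlaps between the groups.

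The artery with the most plaque, 1.003 mm2, was highest for 0 of the 8 separated probes. The medium artery with 0.448 mm2, medium replicate 1, was the highest of the 8 for 5 of them and among the top 3 for all 8. Its mean over those probes was 0.84 above the average of the 8 arteries. The large artery with 0.61 mm2 was lowest for 3 of them, with a mean of -0.47. The same medium artery had the highest mean of the 13 macrophage markers, 3.51 on the log2 scale. The other 7 arteries ranged from 2.75 to 3.29. By summed intensity of these markers it had 367, below the 432 of medium replicate 4 and the 423 of medium replicate 5. The part of macrophage markers in the result was not tested.

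Macrophage markers were measured in the same arteries. Of 13 measured, 7 rose in medium and 6 in large plaques and none fell, where 1.97% and 0.948% of all probes rose. The other 6 and 7 did not pass. These markers were also chosen with earlier results of these data known. Their summed intensity was 73.7 to 136.9 in small, 243 to 432 in medium and 228 to 355 in large plaques, with no marker at the floor in any artery. C1QA, a complement subunit made by macrophages, rose by 2.39 in medium plaques, and CSF1R, the receptor for their growth factor, rose by 2.17. The differences of 3 markers were below 0 in both comparisons: the lysosomal protein CD68 had -0.44 in medium and -0.66 in large plaques, the scavenger receptor MARCO had -0.66 and -0.90, and C1QB, another complement subunit, had -0.29 and -0.11, none of which passed. The part of macrophage number in the rise of the receptors was not tested.

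Other cell types can carry these receptors as well. None of 6 measured B cell markers passed in either comparison, and their summed intensity was 11.7 to 17.3 in small, 13.6 to 15.9 in medium and 14.1 to 14.2 in large plaques. None of 5 neutrophil markers passed, with sums of 4.72 to 8.25, 3.13 to 4.36 and 3.76 to 4.32 in the same order. None of 7 T cell markers passed, with sums of 14.5 to 31.0, 27.3 to 42.3 and 20.5 to 33.5. Of their differences, 3 of 7 were above 0 in each comparison. The lowest adjusted p of these 7 was 0.0596 in medium plaques (limma) and 0.226 in large ones (limma). Of 7 dendritic cell markers 1 passed, LILRA4 in medium plaques, with a rise of 2.71 (adjusted p = 0.019), where 1.97% of all probes rose. These counts use the brightest probe of each gene. A dimmer probe of CD1C, 475013, lay at 1.14 to 2.75 in small, 3.65 to 4.44 in medium and 2.01 to 4.04 in large plaques. The CD1C probe that was counted overlapped between the groups. The part of these cell types in the rise of the receptors, B cells and CD180 included, was not tested.

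By the brightest probe of each gene, endothelial markers (8 measured) and fibroblast and adipocyte markers (7 measured) gave no call in either comparison. A dimmer probe of PECAM1, 140019, was not counted. It ran from -2.29 to -1.16 in small plaques and from -0.71 to -0.07 in the others, while the other PECAM1 probes overlapped between the groups. Of 5 smooth muscle markers 1 fell in medium plaques, where 1.17% of all probes fell, and 0 passed in large ones. Of the 5 differences, 0 were above 0 in either comparison. Their median was -1.13 in medium and -0.86 in large plaques, against -0.09 and -0.10 over all probes. Summed intensity of these markers was 987 to 1753 in small, 565 to 1020 in medium and 722 to 1134 in large plaques. The part of these cell types in the rise of the receptors was not tested.

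Receptors and their partners were then compared within each artery, as the log2 level of the first minus that of the second. The absolute difference depends on the probes, so only its change between the 4 small plaque arteries and the other 8 was tested, with an exact two-sided permutation test over 8 pairs. The smallest p this test can give is 0.00202. A shift is one of probe signals: probes can differ in how their signal follows the amount of RNA, most of all near background, and this was not tested.

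For LY86 and CD180, which form a single complex, the difference between the probes shifted. LY86 minus CD180 was 1.77 ± 0.63 (SD, n = 4) in small plaques and 4.44 ± 0.70 (n = 8) in the others, a shift of 2.67 (exact permutation, adjusted p = 0.00323). All 8 arteries lay above all 4. LY86 minus LY96, the homologous co-receptor of TLR4, shifted by 1.59, and TLR8 minus TLR7 probe 233094 by 2.31, each with an exact permutation adjusted p of 0.00323. TLR8 alone had separated between these arteries and TLR7 had not, so the shift of that pair largely restates the separate results.

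LY96, CD14 and TLR4 probe 259050, the parts of the lipopolysaccharide receptor, showed no such shift between them. LY96 minus TLR4 was -1.34 ± 0.61 (SD) in small plaques and -1.16 ± 0.44 in the others, a shift of 0.17 (exact permutation, adjusted p = 0.776). CD14 minus TLR4 shifted by 0.04 and LY96 minus CD14 by 0.13 (exact permutation, adjusted p = 0.945 for each). A missed threshold does not show equal change, and the SD of CD14 minus TLR4 was above 1 in both groups. Against the TLR4 probe 493047 the same co-receptors shifted by 3.11 for LY96 and 2.97 for CD14 (exact permutation, adjusted p = 0.00323 for each). Both co-receptors had separated on their own and probe 493047 had not, so these shifts largely restate the separate results.

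**Figure D4:**
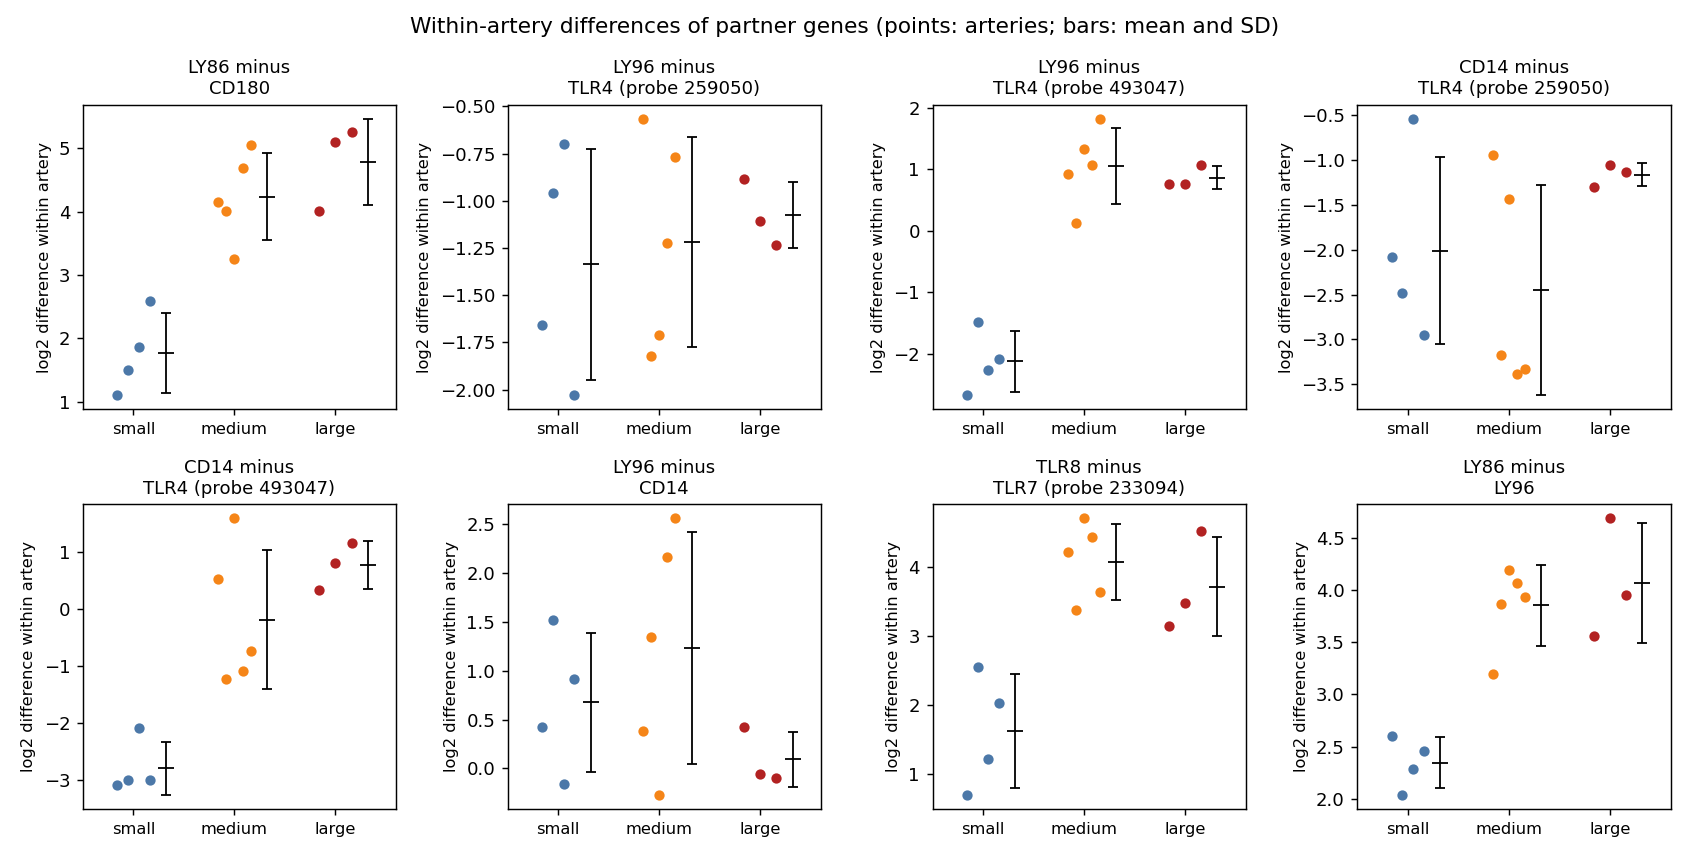
Within-artery log2 difference between the members of each of 8 pairs, by plaque group (small n = 4, medium n = 5, large n = 3), each panel with its own y axis. Points are arteries and bars are group means with SD; for LY86 minus CD180 every medium and large artery lies above every small one, while for LY96 minus TLR4 probe 259050 the groups overlap.

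Genes of the pathway outside the set were counted by role, and the counts are to be read beside the 1.97% of all probes that rose in medium and the 0.948% that rose in large plaques. A single call in a list of 5 to 19 genes is not read as a result about that list. Of the other Toll-like receptors, 1 of 5 rose in medium plaques and 0 of 5 in large ones: TLR6, which pairs with TLR2 as TLR1 does, rose by 1.42 ± 0.28 in medium plaques (adjusted p = 0.0199) and had 0.72 ± 0.32 in large ones (adjusted p = 0.3). Among receptor helpers and chaperones 3 of 8 rose in both comparisons. Of the 8 differences, 7 were above 0 in medium and 5 in large plaques. CNPY4 had -0.82 in medium (limma, adjusted p = 0.104) and -1.22 in large plaques (limma, adjusted p = 0.0631), and neither passed. CNPY3, a chaperone that Toll-like receptors need to fold, rose by 1.97 in medium (adjusted p = 0.00262) and by 2.16 in large plaques (adjusted p = 0.00649). TASL, which links endosomal receptors to IRF5, rose by 2.59 and 2.48, and CD36, a scavenger receptor that assists TLR2 and TLR4, by 2.82 and 2.87. The call of TLR6 was lost without medium replicate 5 (1.33). In large plaques the call of TASL was lost without small replicate 2 or 3 or large replicate 1 or 3 (2.22 to 2.46), and that of CD36 without small replicate 3 or 4 or large replicate 1 or 3 (2.66 to 2.72).

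Reported endogenous ligands gave 0 of 7 in both comparisons. HSPA1A, a heat shock protein and the ligand of smallest p, had -0.43 in medium (adjusted p = 0.149) and -0.40 in large plaques (adjusted p = 0.266). Among adaptors and proximal kinases 1 of 19 rose in each comparison: IKBKE, a kinase upstream of interferon genes, by 1.75 in medium (adjusted p = 0.00467) and 1.55 in large plaques (adjusted p = 0.0331). Of 8 transcription factors none passed in medium plaques and IRF3, which drives interferon genes, rose in large ones by 1.92 (adjusted p = 0.0253). The large plaque calls of IKBKE and IRF3 were both lost without small replicate 2 or 4 or large replicate 1 or 3, and that of IKBKE also without small replicate 3; the differences then were 1.42 to 1.54 for IKBKE and 1.76 to 1.91 for IRF3.

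Inhibitors of the pathway rose in 2 of 15 cases in medium and 1 of 15 in large plaques. NFKBIE, which holds NF-kappa-B in the cytoplasm, rose by 1.39 in medium (adjusted p = 0.0052) and 1.22 in large plaques (adjusted p = 0.0366). The large plaque call was lost without small replicate 2 or 4, medium replicate 3 or 5 or any of the 3 large replicates, with differences from 1.04 to 1.32. TNIP3, which restrains NF-kappa-B signalling, rose by 1.69 in medium plaques (adjusted p = 0.00345) and had 1.23 in large ones (adjusted p = 0.0574).

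Of 16 induced cytokines and enzymes, 3 rose in both comparisons. CXCL8, which attracts neutrophils, rose by 3.81 in medium (adjusted p = 0.00048) and by 3.83 in large plaques (adjusted p = 0.00202). CCL2, which attracts monocytes, rose by 2.27 (adjusted p = 0.00041) and 1.51 (adjusted p = 0.0163), the latter call being lost without large replicate 1 (1.53) or 3 (1.34). SOD2, the mitochondrial superoxide dismutase, rose by 4.00 and 3.82 on probe 397021, while its other probe, 121058, had -0.27 and -0.28 and did not pass. The median of this list was 0.15 in medium plaques, against -0.09 over all probes.

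**Figure D5:**
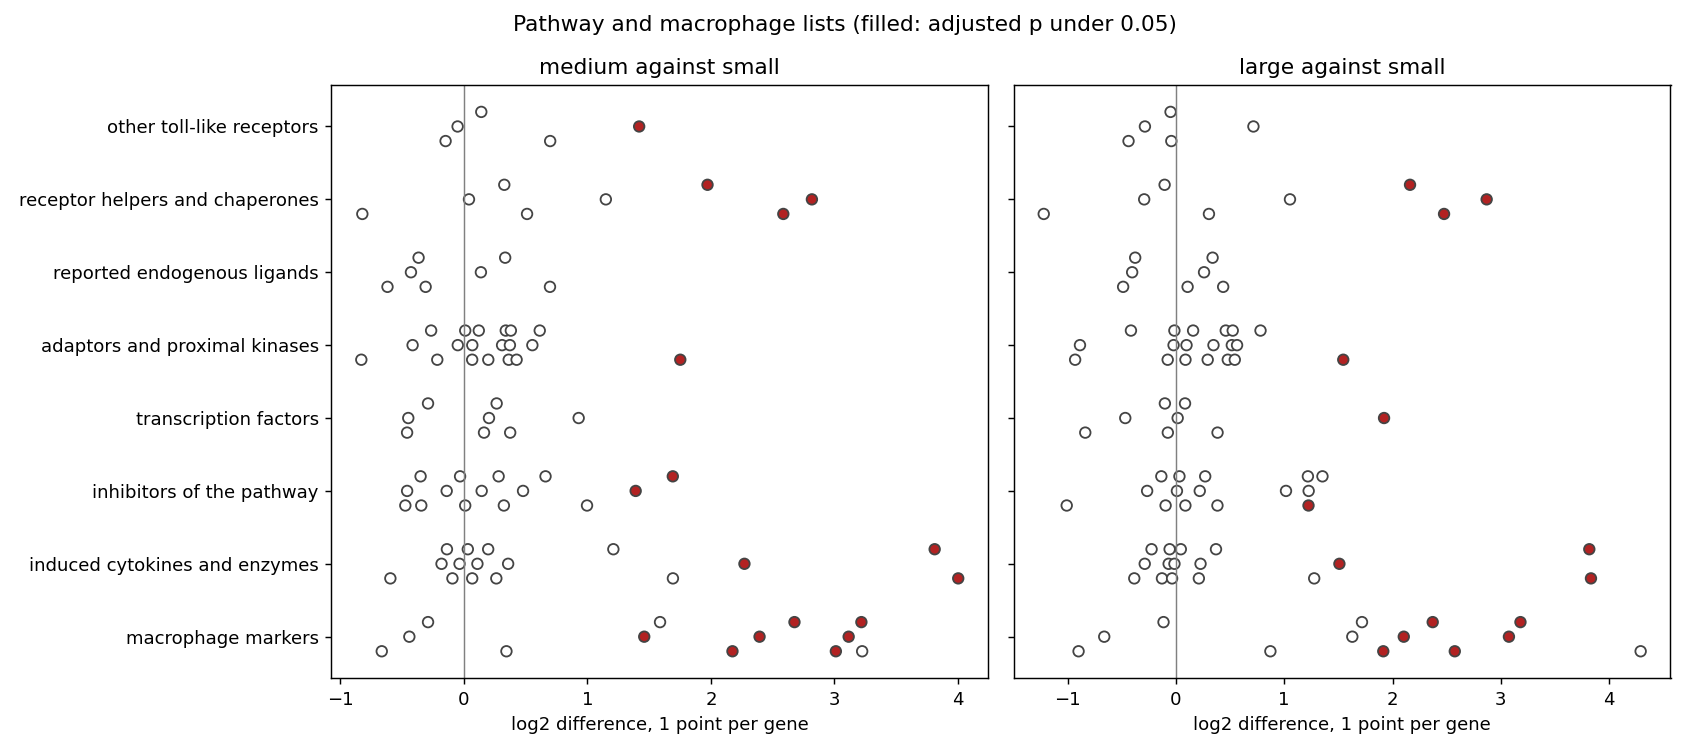
Log2 difference of each measured gene of 7 pathway lists and of the macrophage markers, in medium (left) and large plaques (right) against small ones, 1 point per gene. Filled points passed an adjusted p of 0.05: 3 of 8 receptor helpers and 3 of 16 induced genes in both panels, 0 of 7 endogenous ligands, and 7 and 6 of 13 macrophage markers.

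The genes whose profile over the 12 arteries was most like that of each member were found by the smallest root mean square difference of log2 values, each centred on its own mean. For LY86 these were CYP27A1 (0.333), IFI30 (0.341) and MLPH (0.450), and for LY96 they were PTPN6 (0.272), MS4A7 (0.284) and CD53 (0.310). TLR1 had CD48 (0.338), CD53 (0.350) and CD86 (0.356), and TLR4 probe 259050 had RGS7 (0.279), CD48 (0.295) and DENND1C (0.327). TLR8 had CBFB (0.219), OTULINL (0.225) and IRF8 (0.241). CD53 was thus shared by TLR1 and LY96, and CD48 by TLR1 and TLR4, and all of these profiles share the step above the small plaque group.

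CD180 was closest to CERK (0.372), CNDP2 (0.376) and KIF15 (0.390), CD14 to TRPV2 (0.336), RAC2 (0.371) and IFNGR2 (0.404), and MYD88 to APOA4 (0.219), SOAT2 (0.227) and IGFLR1 (0.239). The flat profiles of the probes that did not rise leave little room for distance (SD over the arteries of 0.22 for TLR4 probe 493047). Their closest genes were NKIRAS2 (0.102), ZFPL1 (0.110) and LINC01696 (0.111) for TLR4 probe 493047, and FBXO42 (0.202), MEIS1 (0.243) and ZNF496 (0.246) for TLR7 probe 233094.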

How the data were processed

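RNA of 12 left iliac arteries was hybridised to a single-colour human CodeLink array each, per the labels' protocols. The deposited values are intensities on a linear scale with array medians near 1; how background and scale were set is not given in the sources used here. Of 54359 probes, 53877 were tested, those measured in 2 or more animals per group. Values were floored at the 5th percentile of positive values (0.111, which affected 5.45% of values) and log2 was taken of the deposited intensities, with no further normalization. Probes were named from the platform annotation: 23267 had 1 symbol, 900 had several and 29710 had none. The array names are human, and no probe sequence was used.

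Groups are the plaque size categories of the labels, with 1 animal per sample. All 12 arrays entered a limma fit (version 3.58.1, R 4.3.3) with 3 group means, or with plaque area as a number, and p-values were two-sided and Benjamini-Hochberg adjusted over all probes tested, with a threshold of 0.05. Pairs of partners were tested by exact permutation; TLR1 with TLR2 and MYD88 with TLR2 could not be run. The fit was tested on simulated data in which 200 probes were changed by amounts set in advance. Normal noise was drawn independently for each probe. It recovered 70% of them in each comparison with small plaques and 64% for the slope over all arteries. At the threshold of 0.05, the false share of calls was 7.28% for medium plaques, 6.67% for large ones and 3.76% for the slope. All of these shares depend on the amounts and the noise that were chosen. Probes of real arrays can vary together, so the shares are not error rates of the calls reported here. Figures were drawn with matplotlib 3.10.9 in Python 3.11.15.

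The members and lists were chosen with earlier results of these data known. Pathway and cell type lists took 1 probe per gene, the brightest with values on every array. Genes named are all members and the 3 genes closest to each member. From each pathway list up to 4 past the threshold were named by smallest p, otherwise the gene of smallest p. CSF1R, C1QA, CD68, MARCO, C1QB, LILRA4, PECAM1 and CD1C were named from the marker lists after their values were seen. So were CNPY4 from its pathway list and the second SOD2 probe. Alternatives were quantile normalization, floors at the 1st and 10th percentile, a filter on dim probes (intensity of at least 1 on 3 arrays), a trended robust variance model, array weights, a replicate block, only the groups compared, the square root of area, and leaving out animals. Promoter motifs were not analysed here.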

Additional observations from a re-analysis of the deposited data

Results flagged for a closer look

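Each group of 4 or 5 arteries was examined for a value far from the others, over 46 groups of values of the members and named pathway genes; chance flags about 1 in 20 such groups, and 2 were found. CD180 in medium replicate 1, the artery with 0.448 mm2, stood at 3.20 where the other medium arteries lay between 0.97 and 1.59. TLR6 in small replicate 3, the artery with 0.041 mm2, stood at 0.42 where the other small plaque arteries lay between 1.41 and 1.45.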

How the results depend on the processing

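In medium plaques 5 to 8 member probes passed under all 21 alternatives, against 7; TLR1, TLR4 probe 259050, TLR8, LY86 and LY96 passed in each. In large plaques the main count was 6, and leaving out single animals gave 2 to 8. LY86 and LY96 passed under every alternative run. A fit of only the 2 groups compared ended the large plaque calls of TLR1 and TLR8 and the medium call of CD14. In that fit MYD88 passed in medium plaques. The slope count of 2 was the least stable: it was 1 with the floor at the 1st percentile, 4 at the 10th, 7 with the filter on dim probes, 4 with the trended robust variance, 7 on the square root of area, 0 to 7 without single animals and 0 without small replicate 4 and medium replicate 5 together. Those 2 animals were left out together because their identity numbers lay far from the others. Whether this marks another cohort was not tested. Without both, CD180 and CD14 lost the medium call, and TLR4 probe 259050 and CD14 lost the large one. The causes of these changes were not tested. Large against medium and the slope within 8 arteries stayed at 0, and the 5 partner pairs passed under all 15 alternatives. No result changed direction while called. Deviations from the group means correlated from -0.159 to 0.216 over 10 pairs of same-numbered animals, 4 of them over 0.1, against 3 of 37 pairs with other numbers. No label ties the numbers to a shared origin, so the main fit did not pair the samples by them. Whether same-numbered animals share an origin was not tested. With the replicate number as a block, 6 probes passed in medium plaques (CD180 did not, limma adjusted p = 0.0817), 5 in large ones (CD14 did not, adjusted p = 0.0548) and 0 for the slope (LY86 0.178, MYD88 0.179). The median over all probes was -0.11 for the slope and at most 0.12 below 0 under any alternative.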

Other observations

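In the RefSeq annotation of the cynomolgus genome (T2T-MFA8v1.1), TLR1 lies between TLR10 and TLR6, and TLR7 is next to TLR8. TLR1 and TLR6 rose in medium plaques while TLR10 had 0.70 and did not pass, and TLR8 rose while TLR7 did not pass. The TLR10 probe was dim, with values from -3.17 to -1.15. LY86 overlaps F13A1, the gene of a coagulation factor subunit that macrophages also make. F13A1 had -0.49 ± 0.42 in medium plaques (limma, adjusted p = 0.579) and -0.49 ± 0.48 in large ones (adjusted p = 0.664), beside the 4.43 of LY86 in both. TLR10 and F13A1 were chosen after their values were seen.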
